A study of Mus musculus with 3 samples.

Results

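MHC class II-high myeloid cells are the cells of this hippocampal sort that carried many transcripts of the class II antigen-presenting chains and few markers of border macrophages, the macrophages of the brain's membranes and vessels. They were chosen from the passing cells of runs 1, 2 and 3, where a cell passed with 1000 UMIs or more, 500 genes or more and no more than 10% of UMIs from mitochondrial genes. A UMI is the sequence tag that lets copies of the same captured transcript be counted once. A chosen cell had at least 20 summed UMIs of H2-Aa, H2-Ab1 and H2-Eb1, and fewer than 3 of the 6 border macrophage markers Mrc1, Pf4, F13a1, Cbr2, Lyve1 and Cd163. The rule took 76 of 19791 passing cells, 13 of 6993 in run 1, 23 of 6720 in run 2 and 40 of 6078 in run 3. All 3 runs form a single group of mouse cells labelled as tdTomato-positive and taken from bilateral hippocampi. The animals carried Cx3cr1CreERT2/+, Rosa26tdTomato/+ and NestinTK-eGFP/+ and had received tamoxifen at 100 mg/kg on 4 days. After perfusion with PBS the hippocampi were dissociated, freed of myelin with magnetic beads and sorted by flow cytometry, and RNA of single cells was captured in 10x droplets. The inducible Cre acts from the Cx3cr1 locus, so the reporter marks cells that use this gene, which are mainly microglia but also other macrophages and some blood-derived myeloid cells. The design lists 12 animals, 6 male and 6 female, and does not assign them to runs. The age of the animals and the time from tamoxifen to collection are not given in the sources used here.

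MHC class II molecules are pairs of an alpha and a beta chain that display peptides from engulfed proteins to helper T cells. In mice of the H2-b type, H2-Aa and H2-Ab1 encode the I-A pair, while H2-Eb1 encodes the beta chain of I-E. Cd74 encodes the invariant chain that guides class II molecules through the cell, H2-DMa and H2-DMb1 encode the peptide editor H2-DM, and Ciita encodes the transcriptional coactivator of all these genes. Resting microglia are known for little class II expression, whereas dendritic cells, part of the border macrophages and activated monocyte-derived cells are known for high expression.

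The promoters of the chains are shown because the rule counted their transcripts. H2-Aa lies on chromosome 17, minus strand, at 34282744 to 34287823 in GRCm38. H2-Eb1 lies on its plus strand at 34305867 to 34316674, and H2-Ab1 on its plus strand at 34257689 to 34269419. The windows below run 5′ to 3′ from 250 bases before to 50 bases after the gene start, from RefSeq on GRCm38.p6, at chr17:34287774-34288073 (minus strand) for H2-Aa and chr17:34305617-34305916 (plus strand) for H2-Eb1. Capitals mark the letters ATTGG, the core of the Y box that class II promoters are known to share, on the printed strand, or CCAAT where the match is on the opposite strand.
H2-Aa: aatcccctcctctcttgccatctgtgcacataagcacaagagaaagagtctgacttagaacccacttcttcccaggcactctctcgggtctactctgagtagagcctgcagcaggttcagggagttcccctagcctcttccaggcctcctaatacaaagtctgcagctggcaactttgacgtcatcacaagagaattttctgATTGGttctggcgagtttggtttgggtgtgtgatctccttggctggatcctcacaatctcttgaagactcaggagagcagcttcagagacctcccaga
H2-Eb1: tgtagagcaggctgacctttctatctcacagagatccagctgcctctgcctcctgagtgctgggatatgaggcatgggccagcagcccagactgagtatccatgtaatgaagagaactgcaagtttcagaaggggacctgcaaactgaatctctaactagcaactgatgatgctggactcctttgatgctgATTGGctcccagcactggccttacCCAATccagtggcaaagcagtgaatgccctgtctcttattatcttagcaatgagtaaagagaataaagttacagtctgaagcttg
In H2-Aa the match began 48 bases before the start. In H2-Eb1 a match began 59 bases before the start on the printed strand, and another lay 35 bases before it on the opposite strand. The same letters on either strand, with overlapping matches allowed, were present in 37.4% of the 32851 promoters of the table, so the match is a description of these windows and not a site.

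The chains that chose the cells had levels far apart in members and other cells, which is what the rule asked for and is given without a test. Among all passing cells with fewer than 3 border markers, 18436 had no UMI of the 3 chains and 1101 had 1 to 4. Only 19 cells had 5 to 9 and 6 had 10 to 19, while 8 had 20 to 39, 12 had 40 to 79 and 56 had 80 or more. The members just inside the threshold had 20, 20, 20 and 30 UMIs, and the cells just outside had 18, 18, 16 and 11. Cells with 5 to 9 UMIs numbered 10, 5 and 4 in runs 1, 2 and 3. Those with 10 to 19 numbered 1, 3 and 2, and those with 20 to 39 numbered 1, 1 and 6. At 40 to 79 there were 0, 4 and 8 cells, and at 80 or more 12, 18 and 26. The range around the threshold was thus not equally sparse in each run. A member had a median of 220 chain UMIs in run 1 (33 to 549), 163 in run 2 (range 30 to 437) and 135.5 in run 3 (range 20 to 548), which was 3.57%, 4.15% and 2.20% of the cell's UMIs. None of the 585 barcodes that failed the depth or mitochondrial filters reached 20 chain UMIs.

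**Figure D1:**
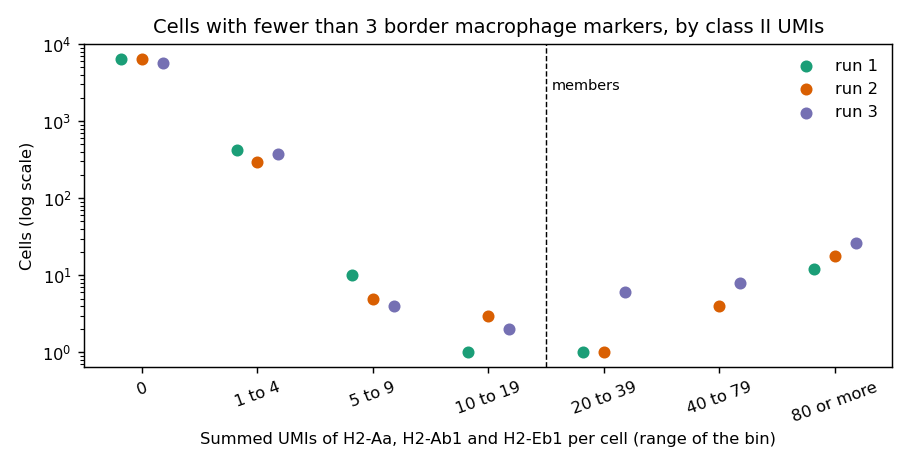
Number of passing cells with fewer than 3 border macrophage markers (log scale) by summed UMIs of H2-Aa, H2-Ab1 and H2-Eb1 per cell, with a point for each run, and bins without cells left out; the dashed line is the threshold of 20 UMIs. Few cells lie between 5 and 39 UMIs, while 56 members have 80 or more.

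Levels below are CPM, the UMIs of a gene divided by all UMIs summed over the cells of a population in a run, times 1000000. H2-Aa stood at 9261, 10208 and 7423 CPM in members of runs 1, 2 and 3, and at 28.9, 12.1 and 18 CPM in the other passing cells. H2-Ab1 stood at 9685, 10263 and 7571 against 41.5, 22.3 and 27.1 CPM, and H2-Eb1 at 10039, 9057 and 7137 against 27.4, 9.43 and 20.2 CPM. Each chain was detected in 76 of 76 members, and in 0.979%, 4.99% and 1.01% of the 19715 other cells for H2-Aa, H2-Ab1 and H2-Eb1. Among cells with T or NK markers, 1 of 13 had an H2-Aa UMI and 0 of 13 had an H2-Ab1 or H2-Eb1 UMI, too few cells to measure free RNA at such rates. Those cells had a median of 3910 UMIs, against 6228.5 in members.

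The other genes of the class II route were described with the rule and not tested. Cd74 was present in all 76 members at 24167, 32283 and 19721 CPM, against 102, 71.1 and 74.9 CPM in the other cells. Ciita was detected in 36 members at 80.8, 68.9 and 255 CPM, against 0.538, 0.246 and 0.59 CPM, and its members' level was highest in run 3. H2-DMa stood at 778, 937 and 918 CPM against 221, 307 and 246 CPM, and H2-DMb1 at 989.7, 875 and 734 against 159, 206 and 165 CPM. In each of these 4 genes every run of members lay above every run of other cells. H2-Oa, a chain of the H2-DM inhibitor H2-DO, overlapped between the groups at 50.5, 117 and 105 CPM in members and 49.2, 66.2 and 54.8 CPM in other cells. Its partner H2-Ob overlapped too, at 0, 13.8 and 59.5 against 22.3, 19.1 and 21.2 CPM. Genes of the route that the rule leaves untouched could be tested. Ctss, the protease cathepsin S, which trims the invariant chain, stood at 4636, 4718 and 2212 CPM against 4863, 6095 and 5289 CPM and was not called (log2 difference -0.33 ± 0.25, SE, adjusted p = 0.422). Lgmn, the lysosomal protease legumain, was lower in members at 1474, 1453 and 711 CPM against 4168, 5927 and 4085 CPM, with a log2 difference of -1.79 ± 0.25 (SE, adjusted p = 2.53e-11). The general class II promoter factors Rfx5, Rfxap and Rfxank were tested and not called, with adjusted p from 0.804 to 0.933.

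The label of the cells was checked against its other 2 markers, which the rule did not count. Clec12a, a C-type lectin of myeloid cells, was detected in 60 of 76 members at 323, 427 and 292 CPM, and in 0.355% of other cells at 2.09, 0.861 and 1.85 CPM. Ms4a7, a marker of border and infiltrating macrophages, was detected in 40 members at 384, 1364 and 280.4 CPM, and in 0.852% of other cells at 18, 6.72 and 11.4 CPM. Run 2 held the highest Ms4a7 level, and 36 members had no Ms4a7 UMI. Tyrobp, an adaptor of myeloid receptors, was present in all 76 members and Spi1, which encodes the myeloid factor PU.1, in 68. Cd74 and Tyrobp were thus found in every member, while Ms4a7 marked only part of the cells.

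MHC class II-high cells made up 0.186% of run 1, with an exact 95% binomial interval from 0.099 to 0.318%. The share was 0.342% in run 2 (interval 0.217 to 0.513%) and 0.658% in run 3 (interval 0.471 to 0.895%). Intervals cover counting error only. The mean share was 0.395% ± 0.241 (SD, n = 3). Run 3 had the highest share and run 1 the lowest, and the intervals of these runs did not overlap. With the border marker exclusion lifted, 114 cells had 20 or more chain UMIs, 0.543%, 0.446% and 0.757% of runs 1, 2 and 3. In that count run 2, not run 1, was the lowest, since 25 of the 38 excluded cells came from run 1.

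Several properties of the libraries move with the members. The median depth of members was 5461, 5577 and 6919.5 UMIs in runs 1, 2 and 3, against 4424, 3433 and 3690 in other cells. Cells that held both Xist and Y-linked UMIs, a pattern possible where a droplet held a male and a female cell, numbered 0 of 13, 0 of 23 and 4 of 40 among members, and 2.62%, 1.43% and 1.64% of other cells. Barcode sequences shared between pairs of runs numbered 7 or 8, and none belonged to a member. No doublet caller was run here. The runs' summed member UMIs were 99018, 145185 and 353071, so run 3 gives 59.1% of all member UMIs.

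To ask what else marked these cells, genes outside the rule were compared between members and all other passing cells within each run, with edgeR's quasi-likelihood test and the run as a block. Members carried less of every microglia gene listed and more of interferon-responsive, S100 and most class I genes. All 5 classical monocyte genes that could be tested, of 10 listed, were higher too. Of 11457 genes tested, 2103 (18.4%) were called at an adjusted p of 0.05, 989 higher (8.63%) and 1114 lower (9.72%) in members. The median log2 difference over all genes tested was -0.28. The count filter keeps a gene that is high enough in either population. Genes rare in other cells were thus tested only where members carried them, so the filter itself favours higher calls in lists of such genes. The other cells include 153 border macrophages by marker detection. Members were picked and compared in the same cells, so genes that vary from cell to cell with the chains belong to what the rule picks. The p-values rest on the spread between 3 runs, which may share animals. In this fit all genes shared a single estimate of spread, so a gene's own spread between runs did not enter its SE or p-value. Without the run block a gene's own spread entered in part. The edgeR SE of Cxcl10 was then 0.79 and its adjusted p 1.51e-06, against 0.30 and 9.80e-146 with the block. With all cells thinned to 2000 UMIs, which kept 74 members and 19071 other cells, 972 genes were called, and without run 3 1222, so the count moved with depth and with the runs. The plot of levels by run shows the groups side by side. Overlap between the runs of the groups is given gene by gene, and the share of all tested genes without overlap was not counted.

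**Figure D2:**
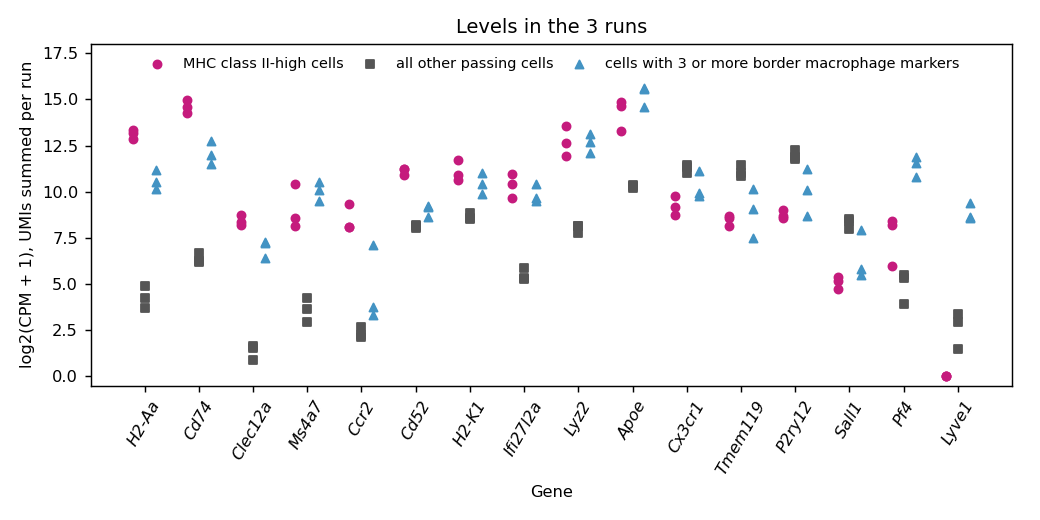
Level of 16 genes as log2(CPM + 1), with UMIs summed per run, in MHC class II-high cells (circles), all other passing cells (squares) and cells with 3 or more border macrophage markers (triangles), 3 runs each. H2-Aa, Cd74, Pf4 and Lyve1 belong to or follow the rule; for Cd52, Ccr2, Lyz2, Apoe, Tmem119, P2ry12 and Sall1 the circles and squares do not overlap.

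The microglia list gave the clearest lower group. All 12 of its genes were called lower in members, with a median log2 difference of -2.61, and all 12 were called lower in each fit that left out a run, in the thinned cells and without the block. P2ry12, the purinergic receptor of microglial processes, stood at 515, 386 and 408 CPM in members and 3699, 4916 and 3522 CPM in other cells, a log2 difference of -2.97 ± 0.26 (SE, adjusted p = 3.56e-28). Tmem119, a microglial membrane protein, stood at 404, 379 and 286 against 1860.2, 2796 and 2057 CPM. Sall1, a transcription factor of microglial identity, stood at 40.4, 34.4 and 25.5 against 337, 254 and 364 CPM, a log2 difference of -3.14 ± 0.32 (SE, adjusted p = 3.86e-20). For each of these genes every member value lay below every value of the other cells. P2ry12 was detected in 31 members and Tmem119 in 36, against 99.2% and 98.7% of other cells. Cx3cr1, the locus that drives the Cre, was detected in 61 members at 869, 427 and 583 CPM, lower than the 2842, 2038 and 2626 CPM of other cells, with a log2 difference of -1.81 ± 0.24 (SE, adjusted p = 1.37e-12).

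Genes of class I presentation, the route by which all nucleated cells show internal peptides to killer T cells, were higher in members. Of 12 tested, 8 were called higher and 1 lower, with a median log2 difference of 1.43. H2-K1, a class I heavy chain, stood at 1929, 3341 and 1589 CPM in members against 366, 458 and 386 CPM, a log2 difference of 2.67 ± 0.23 (SE, adjusted p = 1.75e-28). B2m, the light chain, was also higher, at 2525, 1784 and 1714 against 1222, 995 and 1172 CPM, a log2 difference of 1.04 ± 0.22 (SE, adjusted p = 4.60e-05). The peptide transporter gene Tap1 stood at 192, 193 and 164 against 40.8, 54.5 and 41.2 CPM, and the immunoproteasome gene Psmb8 at 505, 744 and 714 against 220.1, 234 and 203 CPM. For these 4 genes the runs of members all lay above those of the other cells. Tap2, Erap1 and Calr were not called, and Pdia3, a folding enzyme, was called lower with an adjusted p of 0.0267, a call that was lost without run 1 or run 2.

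Interferon-responsive genes were higher in members as a group. All 12 genes of the type I interferon list were called higher, with a median log2 difference of 3.99, and 11 or 12 of 12 were called in the fits without a run. Ifi27l2a, an interferon-induced gene, stood at 1374, 2025 and 802 CPM in members and 56.5, 39 and 38.3 CPM in other cells, a log2 difference of 5.13 ± 0.24 (SE, adjusted p = 6.10e-94). It was detected in 61 members. Irf7, a transcription factor of the interferon response, stood at 90.9, 269 and 90.6 against 7.26, 7.54 and 4.72 CPM, and Bst2, an antiviral tether, at 737, 1743 and 532 against 178, 173 and 161 CPM. No run of members overlapped the other cells in these 3 genes, and run 2 was the highest among members. All 12 genes of the interferon gamma list were also called higher, with a median log2 difference of 2.98, but only 9 of 11 tested without run 2 and 8 of 11 without run 3. Iigp1, an interferon-inducible GTPase, stood at 80.8, 379 and 108 against 2.75, 0.492 and 2.4 CPM, a log2 difference of 6.81 ± 0.43 (SE, adjusted p = 3.96e-54), from 13 member cells, and its difference without 1 run lay between 5.52 and 7.54. Igtp was called with an adjusted p of 0.0478 and lost its call without run 2 or run 3.

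A few cells carried much of the signal of the T cell chemokines. Cxcl9, a ligand that draws activated T cells, stood at 465, 2032 and 1385 CPM in members against 1.17, 10.4 and 6.11 CPM, a log2 difference of 8.17 ± 0.28 (SE, adjusted p = 3.19e-176). It was detected in 13 members, and 4 of them held 73.0% of its 830 UMIs. Cxcl10, a ligand of the same receptor, stood at 172, 1922 and 640.1 against 4.45, 8.77 and 1.1 CPM, a log2 difference of 7.77 ± 0.30 (SE, adjusted p = 9.80e-146), from 11 members, and 2 of them held 46.0% of its 522 UMIs. Run 2 was the highest for both, and 10 of the 13 Cxcl9 cells also had Ms4a7. Of 12 inducible chemokines and cytokines tested in a separate list, 7 were called higher and none lower, with a median of 1.5. Cxcl16, a chemokine that also exists on the membrane, was found in 52 members at 263, 599 and 303 against 54.2, 59.1 and 55.8 CPM. Il1b, an inflammatory cytokine, stood at 101, 475 and 36.8 against 2.48, 3.08 and 1.31 CPM in 21 members. Ccl3 lost its call without run 1 or run 2, and Ccl2 without run 2.

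Receptors and adhesion molecules that guide leukocytes differed in both directions. Of 12 tested, 9 were called higher and 3 lower in members, with a median log2 difference of 4.50. Ccr2, the receptor that brings monocytes out of the marrow, stood at 273, 269 and 654 CPM in members against 3.35, 3.81 and 5.35 CPM, a log2 difference of 6.76 ± 0.27 (SE, adjusted p = 2.03e-131), and was detected in 45 members and 1.18% of other cells. Cd52, a surface glycoprotein of lymphocytes and monocytes, was detected in all 76 members at 1929, 2431 and 2374 against 266, 291 and 284 CPM, a log2 difference of 3.23 ± 0.23 (SE, adjusted p = 1.67e-40). Itgb7, an integrin subunit of gut-homing cells and dendritic cells, stood at 70.7, 62 and 147 against 0.12, 0.451 and 0.675 CPM in 19 members. Cd44, an adhesion receptor of activated leukocytes, stood at 20.2, 75.8 and 96.3 against 0.568, 0.943 and 0.59 CPM. None of these genes overlapped between the groups. The lower genes of this list included, beside Cx3cr1, Itgam, the CD11b chain, at 111, 34.4 and 139 against 434, 412 and 524 CPM. Of the 10 classical monocyte genes, 5 could be tested and all 5 were higher. Ms4a4c stood at 242, 110.2 and 176 against 3.71, 3.94 and 4.05 CPM in 34 members, while Ly6c2, the defining Ly6C gene, came from 4 members at 0, 220.4 and 22.7 CPM. Of its 40 UMIs, 38 were in the 3 members with Ly6d, which held the plasmacytoid dendritic genes. Vcan and F10 had 0 UMIs in members, and Chil3 and Fn1 had 1 and 2.

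All 13 genes of the S100, annexin and galectin list were called higher in members, with a median log2 difference of 6.16, against -0.28 over all genes tested. These are calcium- and membrane-binding proteins and cytoskeletal genes known to be high in blood-derived cells. All 13 were called higher in each fit without a run and also without the members that held 3 or more conventional dendritic genes. S100a6 stood at 384, 172 and 957 CPM against 1.05, 6.93 and 2.74 CPM, a log2 difference of 7.51 ± 0.29 (SE, adjusted p = 8.61e-142) that became 6.05 without those members. It was detected in 26 members, all 17 with 3 or more of the dendritic genes and 9 of the other 59. Those 59 held 5, 5 and 98 S100a6 UMIs in runs 1, 2 and 3. Vim, an intermediate filament, stood at 424, 379 and 1306 against 4.63, 6.89 and 4.85 CPM in 37 members. Crip1, a LIM-domain protein, stood at 667, 647 and 1784 against 12, 16.9 and 11.9 CPM, a log2 difference of 6.37 ± 0.26 (SE, adjusted p = 1.97e-126). Lgals3, galectin-3, stood at 141, 468 and 694 against 5.2, 10.6 and 5.31 CPM in 33 members. No run overlapped between the groups in these genes, and run 3 was the highest among members for all 4.

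Dendritic cell genes were present in part of the members. Of 6 conventional dendritic genes tested, 5 were called higher, and 2 of 5 without run 3. Genes as rare in other cells as Napsa and Flt3 entered the test through their member levels. The number of higher calls thus depends on the count filter. Napsa, an aspartic protease of dendritic cells, stood at 80.8, 172 and 337 CPM against 0.329, 1.11 and 0.253 CPM, a log2 difference of 8.69 ± 0.38 (SE, adjusted p = 1.13e-112), from 23 members. That difference was 6.74 without the members that held 3 or more of the list's genes. Flt3, the receptor of the dendritic growth factor, came from 11 members at 10.1, 20.7 and 45.3 against 0.389, 0.246 and 0.548 CPM. Cd209a, a lectin of monocyte-related and type 2 dendritic cells, stood at 202, 68.9 and 592 against 1.85, 0.287 and 0.801 CPM in 12 members, a log2 difference of 8.40 ± 0.35 (SE, adjusted p = 3.02e-125). Run 3 was the highest for all 3 genes. Of 6 type 2 dendritic genes tested, 4 were higher and 1, Sirpa, was lower. Type 1 dendritic cells cross-present antigen to killer T cells, and their receptor genes Xcr1 and Clec9a were each found in 4 members. All Xcr1 UMIs of members were in run 3, where its level was 51 CPM. Some of the Xcr1 cells held both Xist and Y-linked UMIs. Of 6 type 1 dendritic genes tested, 2 were called higher and 0 lower. The list summed to 232, 214 and 685 CPM in members against 354, 314 and 370 CPM in other cells, so it was lower in runs 1 and 2. Of the migratory dendritic list, 5 of 8 genes were tested, 2 were higher (Ccl5 and Relb) and 1 was lower (Fscn1), while its defining gene Ccr7 had 1 UMI in all members. Plasmacytoid dendritic genes were concentrated in 3 members with Ly6d, 2 of run 2 and 1 of run 3. These 3 cells had Ccr9 and Cox6a2 as well and no Apoe, Cx3cr1 or Lyz2 UMI.

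Other lists were mixed. Of 18 disease-associated genes listed, 16 could be tested. Among these genes, which are known to rise in microglia around lesions, 9 were higher and 2 lower, with a median of 2.20. Apoe, the lipid carrier, stood at 25309, 29659 and 9822 CPM in members against 1333, 1157 and 1250.1 CPM, a log2 difference of 4.21 ± 0.33 (SE, adjusted p = 1.18e-35), and Lyz2, a lysozyme of macrophages and monocytes, at 6443, 12074 and 3965 against 282, 281 and 218 CPM. Both were lowest in run 3 among members and did not overlap with the other cells. Trem2 and Cd9 were lower, Trem2 at 999.8, 785 and 391 against 2723, 2778 and 2570.4 CPM, and Gpnmb had 0 UMIs in members. Of 11 costimulation and checkpoint genes tested, 3 were higher and 1 lower. Cd40, which receives T cell help, stood at 10.1, 68.9 and 93.5 against 0.389, 0.492 and 0.548 CPM in 13 members, Cd48 and Cd83 were also higher, and Havcr2 was lower. Cd86, the main costimulatory ligand on this list, was not called at 151, 255 and 147 against 256, 273 and 259 CPM, and Il12b and Il10 had 0 UMIs in members. Of 16 lineage transcription factors, 5 were higher and 6 lower, and the fitted median was 0.06 while the medians per run were -0.81, -0.07 and -0.56. Mef2a was among the lower genes, at 192, 193 and 275 against 703, 451 and 830.0 CPM. Irf8, a factor of macrophages and dendritic cells, was not called at 283, 1109 and 776 against 518, 649 and 640.3 CPM. Of 8 cell cycle genes, 5 were higher, but all 5 calls were lost without run 3, and all 5 without the cells that held both Xist and Y-linked UMIs. Mki67, a proliferation marker, was in 3 members. Of 9 immediate early genes, which can rise during tissue dissociation, 5 were higher, among them Fos at 20.2, 48.2 and 221 against 0.837, 1.6 and 59.4 CPM, where run 3 was the highest in both populations, while Jun, Junb and Egr1 were not called. Of 11 border macrophage genes outside the rule, 6 were higher and 1, Maf, was lower, led by Wfdc17 at 222, 145 and 374 against 4.07, 4.02 and 2.57 CPM.

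**Figure D3:**
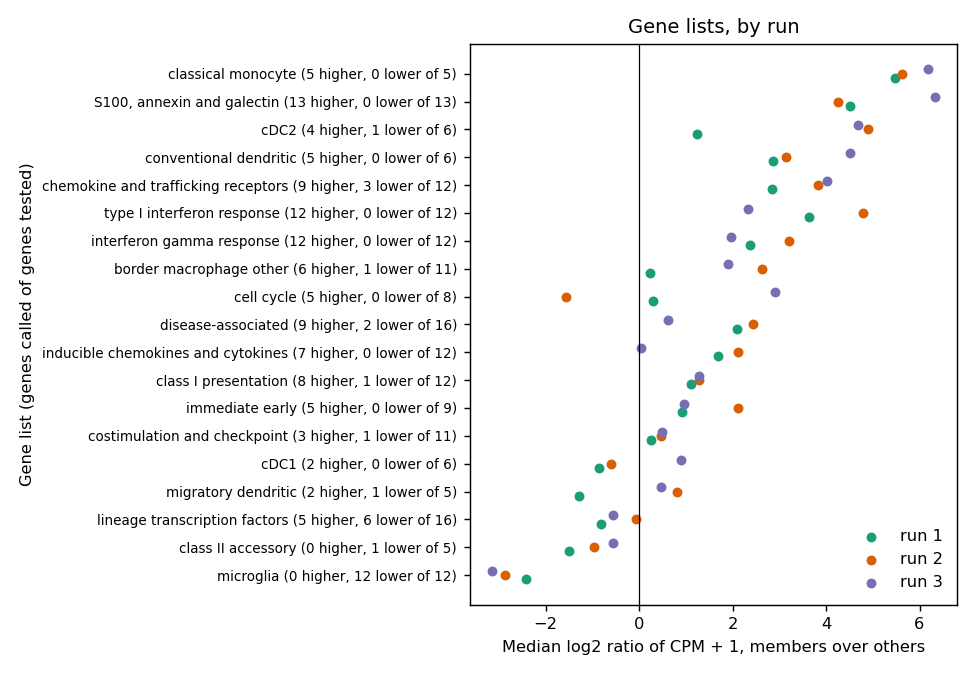
Median log2 ratio of CPM + 1 between MHC class II-high cells and other passing cells over the tested genes of each list, with a point for each run; the labels give the genes called higher and lower of those tested. All 3 runs lie below 0 for the microglia list and above 4 for the S100, annexin and galectin list, while the cell cycle points lie on both sides of 0.

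Apart from the lists, the genes with the largest differences were led by Jaml, an adhesion molecule of leukocytes, at 40.4, 62 and 105 CPM in members against 0.12, 0.041 and 0.211 CPM, a log2 difference of 9.28 ± 0.97 (SE, adjusted p = 1.14e-19). It was detected in 16 members. Plbd1, a phospholipase-like protein of myeloid cells, was detected in 52 members and 0.152% of other cells, at 263, 220.4 and 431 against 0.628, 0.574 and 0.59 CPM. Slamf7, a receptor of activated leukocytes, was found in 34 members at 101, 124 and 144 against 0.239, 0.246 and 0.843 CPM. Ch25h, which makes the oxysterol 25-hydroxycholesterol, came from 14 members at 70.7, 172 and 62.3 against 0.299, 0.164 and 0.253 CPM. Every run of members lay above every run of other cells in these genes, which were named for large differences of 1 direction in all runs. Clec4b1, a C-type lectin, was found in 24 members, and Runx3, a transcription factor, in 31. Klra2, a receptor of the Ly49 family, was in 24, and Dnase1l3, a secreted DNase, in 7, where 1 cell held 52.8% of the UMIs. Among the genes lower in members, Serpine2, a protease inhibitor, stood at 10.1, 48.2 and 17 CPM against 392, 572 and 434 CPM, a log2 difference of -4.04 ± 0.33 (SE, adjusted p = 2.68e-31). Ecscr, a membrane glycoprotein, stood at 30.3, 13.8 and 45.3 against 582, 643 and 539 CPM, a log2 difference of -3.86 ± 0.31 (SE, adjusted p = 6.18e-33). Khdrbs3, Upk1b, Tmem100, Bcl9l, Gp9, Mlxipl and Tnfrsf17 were lower too and had 1 to 3 UMIs in all members together. Ttr, the transthyretin of choroid plexus, varied among the other cells from 102 to 873 CPM between runs and was lower in members, at 40.4, 13.8 and 5.66 CPM.

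Markers of most other cell types were low or absent in members. Of 8 B cell genes, 6 were at 0 UMIs in members, including Cd79a, Ms4a1 and Igkc, and the summed level was 232, 379 and 164 CPM, of which Ighm gave 222, 351 and 153 CPM, against 302, 392 and 320 CPM in other cells. Of 8 T or NK genes 7 were at 0, and of 8 neutrophil genes 7 were at 0. Klrd1, the exception among the T or NK genes, gave a sum of 79.3 CPM in run 3 of members against 33.7 CPM for that list in other cells. It is also known in some dendritic cells, and 8 of its 10 member cells had 3 or more conventional dendritic genes. Choroid plexus genes summed to 70.7, 13.8 and 8.50 CPM in members, against 483, 924 and 108 CPM in other cells. Astrocyte genes summed to 101, 34.4 and 65.1 CPM against 362, 231 and 243 CPM, and endothelial and mural genes were also lower in every run. The 6 oligodendrocyte genes differed from this, with sums of 131, 145 and 125 CPM in members against 104, 124 and 94.3 CPM in other cells. Of 4 tested, Cnp, an enzyme of myelinating cells, and Mbp, a myelin protein, were called higher, with log2 differences of 0.89 ± 0.29 (SE, adjusted p = 0.0153) and 1.57 ± 0.52 (SE, adjusted p = 0.0173), and Mag, a myelin adhesion molecule, was called lower. Cnp gave most of the sum, at 80.8, 124 and 73.6 CPM. Without run 3 all 3 calls were lost, with edgeR adjusted p-values of 0.107 for Cnp, 0.689 for Mbp and 0.300 for Mag, and they were lost likewise without the members with 3 or more conventional dendritic genes and in thinned cells. Cnp and Mag also lost theirs without run 2, Mbp without run 1, and Cnp without the run block (adjusted p = 0.0631). Neuron genes summed to 30.3, 13.8 and 0 CPM in members against 11, 5.78 and 3.79 CPM, and neither of the 2 tested was called. The part of these transcripts in the other results was not tested. A count of 0 UMIs in all members allows up to 3 of the 597274 UMIs.

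The members were not alike, and 2 patterns were apparent when the 8 conventional dendritic genes, Ciita among them, were counted per cell. This division was chosen after the values were seen and is described without a test. Of the 76 members, 17 had 3 or more of these genes, 1 in run 1, 2 in run 2 and 14 in run 3, and only 2 of 19715 other cells did. The 17 were themselves mixed, with Cd209a in 11 and 3 or more plasmacytoid dendritic genes in 2, as in 1 of the other 59. Cells with Xcr1 were among the 17 too. These 17 cells held 38.9% of the members' UMIs, with a median depth of 13472 UMIs, against 5478 in the other 59. After thinning to 2000 UMIs, 5 of 74 members had 3 or more of the genes, so the count moves with depth. Both Xist and Y-linked UMIs were found in 3 of the 17 and in 1 of the 59, and their part in the depth of these cells was not tested. All 17 had at most 1 Apoe UMI, and none had a UMI of Ms4a7 or Pf4. At least 1 of the 6 border markers of the rule was found in 9 of the 17 and in 38 of the 59. Among the 59 other members, Apoe made up a median of 2.88% of the UMIs, and 49 had more than 1%. In all, 22 members had at most 1 Apoe UMI, the 17 and 5 others. Their median depth was 10935 UMIs, against 5476.5 in the 54 members with more, but 4 of the 22 lay below the members' median depth.

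**Figure D4:**
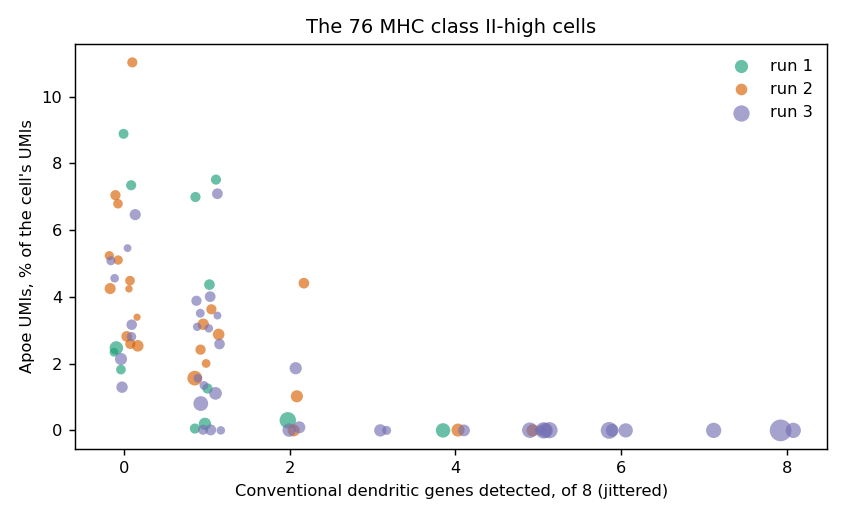
Each of the 76 MHC class II-high cells by the number of conventional dendritic genes detected, of 8 (horizontal axis, jittered), and the share of its UMIs from Apoe (vertical axis, percent), coloured by run, with point area growing with the cell's UMI count. The 17 cells with 3 or more of the genes lie at the bottom, and 14 of them are from run 3.

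Levels in runs 1, 2 and 3 show what the 2 patterns shared and where they parted. The 17 cells were only 1 and 2 cells in runs 1 and 2. In run 2, 1 of these cells held plasmacytoid dendritic genes, with 53 Ly6d UMIs and no Cd209a UMI. H2-Aa stood at 12916, 10587 and 7937 CPM in the 17 cells and 8685, 10148 and 6757 CPM in the 59, and Cd52 at 3637, 2799 and 2218 against 1659.9, 2374 and 2575 CPM. H2-Aa was thus higher in the 17 within each run, while Cd52 was lower in run 3. H2-Ab1 was higher in each run too, but H2-Eb1 was not, at 14623, 8704 and 6839 against 9317, 9113 and 7525 CPM. Per cell, the 3 chains made up a median of 2.25% of UMIs in the 17 and 2.75% in the 59. Apoe stood at 0, 50.9 and 10 against 29294, 34292 and 22542 CPM, and Lyz2 at 891, 204 and 838 against 7318, 13932 and 8019 CPM. Ms4a7, Cxcl9 and Cxcl10 had no UMI in the 17 cells. The interferon-induced gene Ifi27l2a stood at 1782, 0 and 125 CPM in the 17 and 1309, 2342 and 1678 CPM in the 59. It was lower in the 17 in runs 2 and 3 but higher in run 1, where 1 cell gave 24 of the 49 UMIs of the 17. On the other side, S100a6 stood at 2449.5, 1018 and 1204 CPM in the 17 and 58.4, 39.8 and 637 CPM in the 59, and Vim at 2301, 1374 and 1816 against 129, 223 and 644 CPM. Cd209a stood at 1485, 509 and 1044 against 0, 0 and 6.5 CPM. These genes were higher in the 17 in every run, as was H2-DMb2, at 519.6, 356 and 166 against 0, 7.97 and 19.5 CPM. Id2, a factor of dendritic development, stood at 445, 0 and 748 against 23.4, 23.9 and 124 CPM and had no UMI in the 2 cells of run 2. Ccr2 was found on both sides, at 668, 559.9 and 768 against 210.4, 223 and 507 CPM. Jaml had 15 of its 16 cells among the 17, whereas Ch25h had 0 of 14 and Plbd1 14 of 52, in cells of unequal depth. Without the 17 cells 1609 genes were called against the other passing cells, 787 higher (6.92% of 11373) and 822 lower (7.23%). The type I interferon, microglia and S100 lists had 12, 12 and 13 called genes in that fit, as in the fit with all members.

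Microglia genes were also counted per member. A set of 8 microglia genes, among them P2ry12, Tmem119 and Sall1, made up a median of 0.292%, 0.309% and 0.238% of a member's UMIs in runs 1, 2 and 3, against 2.56%, 3.44% and 2.69% in other cells. Members at or above 0.5 times the other cells' median numbered 1, 2 and 3 in the runs, 6 in all. A test needed 10 such cells in each run, so values only are given. The 6 cells had between 20 and 251 chain UMIs, a median of 7652 UMIs per cell, and P2ry12 and Tmem119 UMIs in all 6. Only 1 of them had both Xist and Y-linked UMIs.

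A population with related markers was the border macrophages by marker detection, 153 passing cells with 3 or more of the 6 markers, 78, 27 and 48 in runs 1, 2 and 3. The border markers chose both populations and the chain UMIs chose the members, and 38 of the 153 also had 20 or more chain UMIs. Members carried more S100, cytoskeletal and Ccr2 transcripts, and fewer transcripts of border macrophage genes outside the rule. Of 2855 genes tested with edgeR, 409 (14.3%) were called, 210 higher (7.36%) and 199 lower (6.97%) in members. The count fell to 96 without run 1, 179 without run 2 and 293 without run 3, and to 245 without the run block. In the fit without run 3 all genes shared a single estimate of spread, which was not so in the main fit. Its calls therefore differ in more than the run left out. Of the border cells of run 1, 26 of 78 had both Xist and Y-linked UMIs, against 1 of 27 and 3 of 48 in the other runs, and with such cells left out 496 genes were called.

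Border macrophage genes outside the rule were lower in members. Of 11 tested, 9 were called lower and none higher, with a median log2 difference of -2.97. These genes are known to accompany the markers that chose both groups, so the count is not independent of the rule. Genes with 0 UMIs in members, such as Folr2, passed the count filter through the border macrophages alone. Folr2, the folate receptor of resident macrophages, had 0 UMIs in members and 134, 411 and 303 CPM in border macrophages, which makes it at least 38.7-fold lower when 3 UMIs are allowed over all members. On the same basis Cd209f, a lectin, was at least 95.4-fold lower, and the chemokine gene Ccl24 at least 34.9-fold lower. Colec12, Cd209g, Egfl7, Tslp and Fcna were also at 0 UMIs in members. Stab1, a scavenger receptor, stood at 364, 186 and 87.8 CPM in members against 1212, 1591 and 2109 CPM, a log2 difference of -2.97 ± 0.42 (SE, adjusted p = 1.79e-04) that lay between -3.71 and -2.25 without 1 run. Ms4a6c, by contrast, was not called, at 636, 537 and 552 against 636, 786 and 974 CPM, and in that gene the groups overlapped. Ms4a7, given without a test, overlapped as well, at 384, 1364 and 280.4 CPM in members and 727, 1472 and 1104 CPM in border macrophages.

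The S100, annexin and galectin genes were higher in members than in border macrophages, with 10 of 11 called and a median log2 difference of 3.38. Genes such as S100a6 and Vim passed the count filter through their member levels, so this count and median depend on that filter. The count was 6 of 11 without run 1, 9 of 12 without run 2, 8 of 9 without run 3, and 4 of 5 without the 17 members with dendritic genes, a fit in which 293 of 2121 genes were called, 7.92% higher and 5.89% lower. S100a6 stood at 384, 172 and 957 CPM against 0, 0 and 8.66 CPM, a log2 difference of 7.91 ± 0.54 (SE, adjusted p = 1.57e-07). Vim stood at 424, 379 and 1306 against 8.62, 27.4 and 52 CPM, a log2 difference of 4.99 ± 0.38 (SE, adjusted p = 2.80e-07). Lgals1, galectin-1, was the one not called, at 182, 289 and 450.3 against 165, 357 and 368 CPM. Ccr2 was higher in members at 273, 269 and 654 against 12.3, 9.14 and 139 CPM, a log2 difference of 3.43 ± 0.41 (SE, adjusted p = 3.92e-05), and Cd52 at 1929, 2431 and 2374 against 389, 603 and 572 CPM, a log2 difference of 2.30 ± 0.25 (SE, adjusted p = 1.40e-05). In S100a6, Vim, Ccr2 and Cd52 every run of members lay above every run of border macrophages. The share of all tested genes without overlap was not counted in this comparison either. Napsa, Itgb7, Slamf7, Plbd1, Lsp1, Tmsb10 and Clec4b1 were called higher as well, with log2 differences from 3.75 for Plbd1 to 6.26 for Itgb7. Tmsb10 encodes an actin-binding peptide and Lsp1 a leukocyte actin-binding protein.

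**Figure D5:**
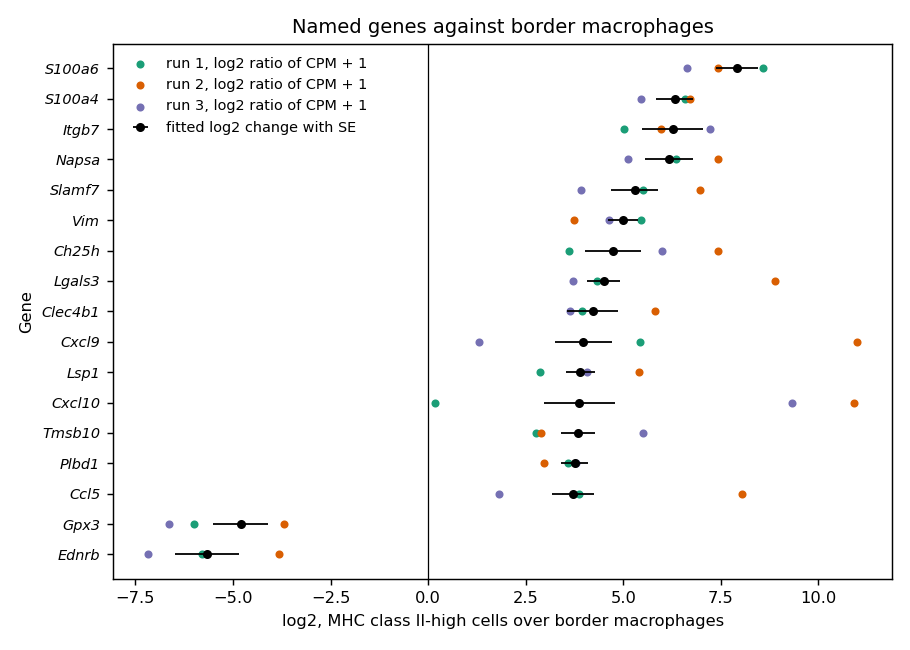
Log2 difference between MHC class II-high cells and border macrophages for the named genes with UMIs in members, as log2 ratios of CPM + 1 in each run (coloured points) and as the fitted value with its SE (black). S100a6 lies highest and Ednrb lowest; Cxcl9 and Cxcl10 are spread over the widest range between runs.

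Interferon genes were also compared with border macrophages. Of 10 type I interferon genes tested, none was called in either direction by edgeR or by DESeq2, 3 had an unadjusted p under 0.05, and the median log2 difference was 0.13. By run, the median log2 ratio was 0.98 and 0.91 in runs 1 and 2 and -1.13 in run 3. Run 3 held 14 of the 17 members with dendritic genes, and their part in its value was not tested. Without run 3, 6 of 10 were called higher, and without the 17 members with dendritic genes 3 of 10 were. In the fit without run 3 a gene's own spread did not enter its p-value, unlike in the fit with all runs. Ifi27l2a stood at 1374, 2025 and 802 CPM in members and 732, 1389.6 and 797 CPM in border macrophages, and the groups overlapped. Of 9 interferon gamma genes, 5 were called higher, but 1 of 10 without run 1, and all 5 calls were lost without run 2. Cxcl9 stood at 465, 2032 and 1385 against 9.86, 0 and 563 CPM, a log2 difference of 3.97 ± 0.72 (SE, adjusted p = 0.00152), and the groups overlapped. That call was lost without run 1 (adjusted p = 0.164), without run 2 (adjusted p = 0.0756) and without the block (adjusted p = 0.110), and without run 3 the log2 difference was 6.41. Cxcl10 stood at 172, 1922 and 640.1 against 153, 0 and 0 CPM, a log2 difference of 3.87 ± 0.91 (SE, adjusted p = 0.00898). Without run 2 its adjusted p was 0.267, and without run 1 the log2 difference was 10.86. Ccl5, a T cell chemokine, had an adjusted p of 2.42e-04 that became 0.0655 without run 1. Of 10 class I genes tested, 4 were called higher, and all 4 calls were lost without run 1 and likewise without run 2. Of 10 microglia genes tested, 5 were lower, 1 of 10 without run 1, 2 of 12 without run 2 and 9 of 11 without run 3. The 8 microglia genes counted per cell made up a median of 1.35% of a border macrophage's UMIs in run 1, against 0.383% and 0.354% in runs 2 and 3, and the part of this difference in the result was not tested. Apoe was not called, at 25309, 29659 and 9822 against 24701, 49743 and 48687 CPM, nor was Lyz2, at 6443, 12074 and 3965 against 4347, 8813 and 6578 CPM.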

How the data were processed

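The deposited files hold raw UMI counts per gene and cell for each run, as the authors' counting software wrote them (3.0.2 in run 1 and 3.1.0 in runs 2 and 3, per the file headers). The submitters' processing notes name Cell Ranger, Seurat 4.0 and mm10, with no role for each. Of 31053 gene IDs, 31011 (99.86%) were found in GENCODE M21, the GRCm38 annotation used for positions. Passing cells totalled 33547705, 24534691 and 24073809 UMIs in runs 1, 2 and 3.

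Members and gene lists were chosen with earlier results of these data known. The 6 sums of a comparison, 1 per run and population, were tested with edgeR 4.0.16 in R 4.3.3 (TMM scaling, filterByExpr, quasi-likelihood F-test) blocked on run, and p-values were adjusted by the Benjamini-Hochberg method across every gene tested. A log2 difference is members minus the other population, and its SE is the log2 difference divided by the square root of F. The 9 rule genes, class II accessory genes, Ms4a7 and Clec12a, 19 in all, stayed in the library sizes and left the tests. Genes named outside the lists were the 15 highest and 10 lowest log2 differences with an adjusted p under 0.05, a log2 difference of at least 1, at least 50 CPM and 20 UMIs in the higher population, and 1 direction in all 3 runs, without ribosomal, mitochondrial, predicted and sex-linked genes. Exact binomial intervals are at 95%. A count of 0 was taken to allow 3 counts.

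Alternatives changed the cell filter, the chain threshold, the depth, the comparison cells, the scaling, the count filter, the block and the test (DESeq2 1.42.0), and left out each run. Others were chosen after seeing the data, among them a floor of 10 UMIs and leaving out members with dendritic or microglia genes or border macrophages with class II chains. The block pairs both sums of a library by design. Deviations from the group means correlated at 0.092, 0.159 and 0.122 over 11475 genes against other cells, and at 0.202, 0.228 and 0.078 over 2871 genes against border macrophages. On simulated counts for the comparison with other cells, 15% of 2-fold and 83% of 4-fold changes were recovered among 11454 genes. For the comparison with border macrophages 25.5% of 55 and 92.5% of 67 altered genes that passed the count filter were recovered, among 3300 genes. H2-Ab1 is named without a promoter. Some genes of the lists are not reported here by name.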

Additional observations from a re-analysis of the deposited data

How the results depend on the processing

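The share of MHC class II-high cells, between 0.304% and 0.582% under the other settings and between 0.264% and 0.5% without 1 run, moved by less than the spread between runs. The 2103 genes called against other passing cells became 972 with cells thinned to 2000 UMIs, 1314 with DESeq2's Wald test, and 1222 to 1651 without 1 run. The 409 genes called against border macrophages became 145 with thinned cells, 215 with DESeq2, and 96 to 293 without 1 run. Without the replicate block the counts were 2008 and 245. Against other cells 144 list genes were called, and the alternatives called 103 (thinned cells) to 150 (no count filter). Of the 144, 102 kept their call and direction in thinned cells, 114 without run 3, and 122 to 143 under the others. The direction of 6 list genes turned, each with an adjusted p above the threshold: Bcl11a at -0.62 and Klrd1 at -0.62 (log2) without members with dendritic genes, Birc5 at -8.69, Ccnb2 at -7.96 and Naaa at -0.18 without run 3, and Cox6a2 at -9.41 with a stricter cell filter. Birc5, Ccnb2 and Cox6a2 then had 0 UMIs in members, so these fitted values depend on the prior count. Over the fits without 1 run the values reached 3.73 for Birc5, 3.98 for Ccnb2 and 1.95 for Naaa. Among single genes, 145 of 2693 values against other cells and 144 of 867 against border macrophages lost their call with the direction kept. The comparison of microglia-marker-rich with poor members and its alternatives were not run, since no run held 10 rich members. Depth limits genes present in few of the 76 cells, which the simulated counts did not model. In those counts a fold of 2 was mostly not recovered, among altered genes with 10 or more UMIs expected in members.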
